A study of Mus musculus with 24 samples.

Results

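The comparison set mouse ovarian surface epithelial cells grown as spheroids after treatment with transforming growth factor beta 1 (TGFB1) against the same cells grown as untreated monolayers. It used 6 libraries, 3 of each group, of the 24 in the series, and the other 6 libraries of the same experiment, 3 TGFB1 monolayers and 3 untreated spheroids, separated the change into its culture and TGFB1 components. All 12 libraries came from the single cell line m1102, kept in the same α-MEM medium with fetal bovine serum, insulin-containing supplement and epidermal growth factor, and none carried a transgene. TGFB1 was given at 10 ng/mL, and the spheroid cells received it for 4 days before they were moved to ultra-low-attachment plates. The labels give neither the length of the monolayer treatment nor the time spent as spheroids, nor whether TGFB1 stayed in the spheroid medium. They also do not say that replicates were separate cultures, so p-values measure the spread between these libraries. All 6 monolayer libraries are titled as re-analysed and none of the spheroid libraries is, so that culture form and library origin cannot be told apart. Of 35687 genes in the table, 13509 reached 1 in at least 3 of the 12 libraries and were tested on log2(value + 1).

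The ovarian surface epithelium is a simple layer related to the mesothelium that covers the ovary and is repaired after each ovulation. TGFB1 binds a pair of serine/threonine kinase receptors, which phosphorylate SMAD proteins that enter the nucleus and act on target genes such as Smad7 and Skil. In epithelial cells the pathway is known for induction of matrix and protease genes and for the epithelial-mesenchymal transition, and it commonly slows proliferation. Detached cells that aggregate lose contact with a stiff substrate, a state in which actin-linked transcription through SRF and YAP is known to be low.

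Values are transcript abundances (TPM) as rescaled by the authors, here called scaled TPM, and the 12 libraries sum to 955433 to 1166749. Read depth is unknown. The 10 most abundant genes held 7.88 to 8.59% of the summed value in monolayers, 9.23 to 11.5% in untreated spheroids and 17.7 to 20.8% in TGFB1 spheroids. In all 3 TGFB1 spheroid libraries the most abundant gene was Spp1, at 4.09 to 7.92% of the sum. The TGFB1 spheroid libraries differed among themselves: library 3 lay nearer to the untreated spheroids (Pearson r of 0.935 to 0.946 over tested genes) than libraries 1 and 2 did. Library 1 was low in several induced genes and the highest of its group in others, such as Spp1, Tnnt2, Slco4a1 and Btc. The first TGFB1 monolayer library stood apart from the other 2. Untreated spheroid 3 did too: it correlated at 0.970 with each of its replicates, which correlated at 0.991 with each other, and its library quality weight of 0.1895 was the lowest of the 12. Untreated monolayers 1 and 2 point to a single earlier sample in their labels, but their values differ (r = 0.992). Several results below are given with and without such a library.

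The combined change was large in both directions. Of the 13509 genes, 7404 (54.8%) differed at an adjusted p below 0.05 in limma's moderated test with Benjamini-Hochberg adjustment over all tested genes. TGFB1 spheroids were higher for 3746 genes (27.7%) and lower for 3658 (27.1%). A change of at least 2-fold was called for 1473 genes upward and 1291 downward. For 8649 genes (64%) the 3 and 3 libraries did not overlap. The split between directions depended on scaling: 50.6% of called genes were higher as deposited, and 39.6% when every library was scaled to the same sum, which moved the median gene to -0.10. The authors' deposited table of model coefficients held 12874 of the tested genes, and the summed coefficients had the same sign for 7188 of the 7188 called genes found in it. Those coefficients describe the same experiment, so the match of signs is a check of labels and direction and no independent support. A further 146 tested entries repeat the values of a gene with the same symbol and are counted as the table lists them.

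The 10 largest increases included secreted signals, a matrix collagen and a protease inhibitor. Spp1, at chr5:104435118-104441050 of GRCm38 (ENSMUSG00000029304), encodes the secreted phosphoprotein osteopontin. It was at 136, 117 and 136 scaled TPM in untreated monolayers and at 80758, 58384 and 44500 in TGFB1 spheroids. Its combined change was 8.83 ± 0.41 (SE; adjusted p = 6.1e-08) on the log2 scale; here and below the SE comes from the fit over all 12 libraries, 3 per group. The TGFB1 monolayers (171, 145 and 127) lay near the untreated ones, while the untreated spheroids were already at 14644, 14045 and 4019. Serpinb2 (chr1:107511423-107535478; ENSMUSG00000062345), an inhibitor of plasminogen activators, rose from 2.18, 1.69 and 1.93 to 94.5, 5951 and 3272, a change of 8.72 ± 1.18 (SE; adjusted p = 9.4e-05). The groups did not overlap, as the selection required, but TGFB1 spheroid 1 was far below the other 2. Without that library the change was 10.56. Inhba (chr13:16011851-16031621; ENSMUSG00000041324) encodes the activin A subunit, itself a ligand of the TGF-beta family. It went from 1.96, 0.976 and 1.43 to 201, 2029.8 and 718, a change of 8.10 ± 0.63 (SE; adjusted p = 1.7e-06). Lcn2, the iron-siderophore carrier lipocalin 2, went from 0.17, 0.144 and 0.183 to 66.1, 355 and 488 (7.61 ± 0.56), and here too library 1 was the lowest of the TGFB1 spheroids.

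The top 10 also held Tnnt2, Vsig8, Col5a3, Slco4a1 and Btc. Tnnt2, cardiac troponin T, rose by 7.48 ± 0.40, and Btc, the EGF-family ligand betacellulin, rose by 7.31 ± 0.39. Col5a3, a fibrillar collagen chain, was at 0.144, 0.15 and 0.148 in untreated monolayers and at 149.6, 360.5 and 153 in TGFB1 spheroids (7.47 ± 0.27). Vsig8, an immunoglobulin-domain membrane protein, rose by 7.48 ± 0.33, and Slco4a1, an organic anion transporter, by 7.42 ± 0.48. Several of these start below 1 scaled TPM, where adding 1 before the logarithm understates the change. The TGFB1 spheroids were above every library of the other 3 groups for each of the 10 genes. Separation from the untreated monolayers was a condition of their selection, and 64% of all tested genes met it in either direction.

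The 10 largest decreases were led by markers of the ovarian surface and mesothelium. Upk3b (chr5:136038496-136046487; ENSMUSG00000042985), an uroplakin typical of mesothelium, was at 290.0, 294 and 245 scaled TPM in untreated monolayers and at 0.974, 0.518 and 1.48 in TGFB1 spheroids, a change of -7.15 ± 0.37 (SE; adjusted p = 1.2e-07). Krt7 (chr15:101411043-101430313; ENSMUSG00000023039), a simple-epithelial keratin, went from 362, 338 and 288 to 1.23, 2.04 and 0.938 (-7.12 ± 0.21). Both genes were already low in untreated spheroids, at 4.64, 4.38 and 3.36 for Upk3b and at 1.94, 2.71 and 3.42 for Krt7. Both were intermediate in TGFB1 monolayers, at 44.6, 137 and 146 and at 111, 157 and 170.0. Fbln5 (chr12:101746565-101819055; ENSMUSG00000021186), an elastic-fibre glycoprotein, took another path. It was at 289, 300.2 and 332 in untreated monolayers, 1049.6, 1037 and 953 in TGFB1 monolayers, 6.46, 5.59 and 17.4 in untreated spheroids and 3.15, 1.9 and 2.95 in TGFB1 spheroids. Its combined change was -6.41 ± 0.31, although TGFB1 raised it in monolayers by 1.72 ± 0.31 (SE; adjusted p = 0.004). The other 7 were Lrrn4 (-6.33), Upk1b (-5.84), Nid2 (-5.84), Prph (-5.58), Cavin2 (-5.58), Rasl11a (-5.45) and Dhrs3 (-5.40).

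**Figure D1:**
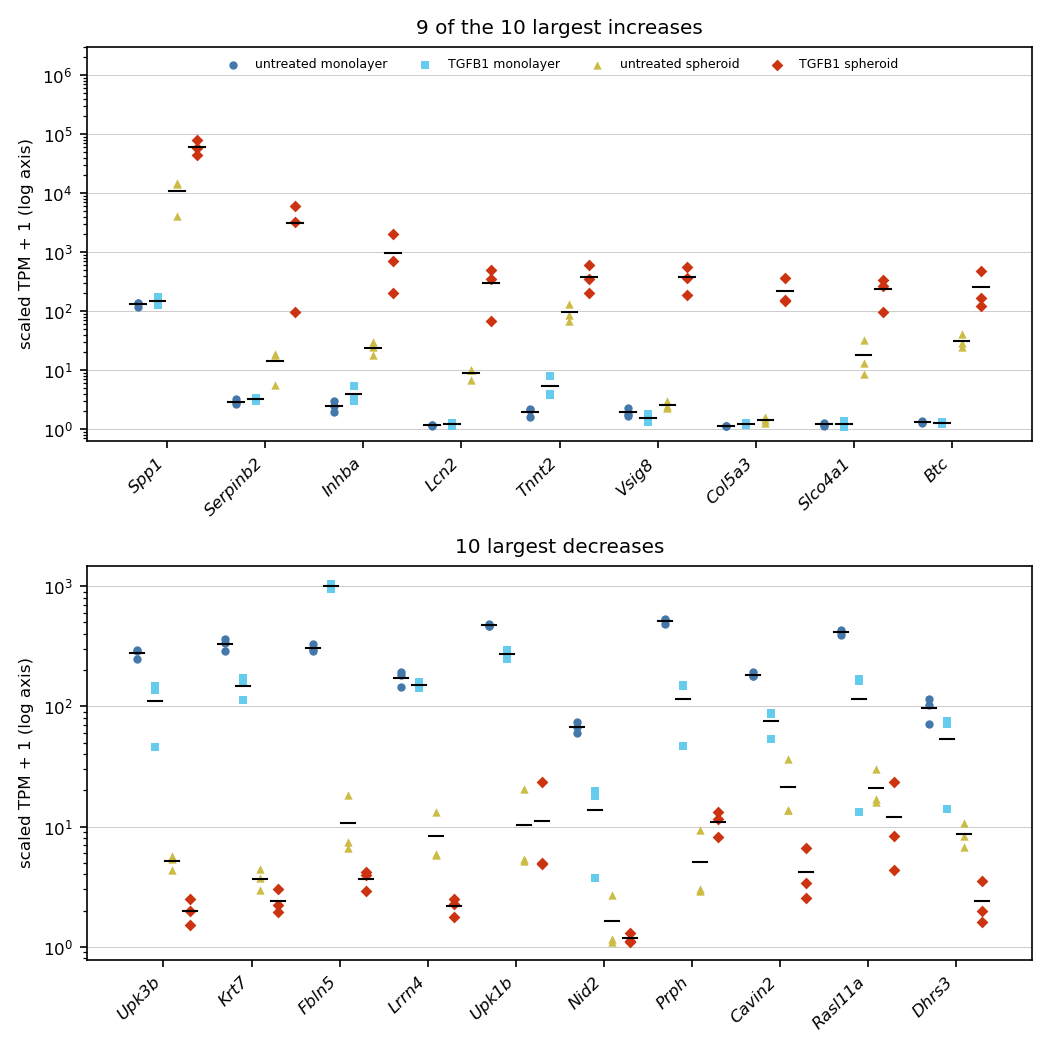
Scaled TPM plus 1 on a log axis for 9 of the 10 largest increases and the 10 largest decreases of the combined change; each point is 1 of the 3 libraries of a group and each bar is the group mean. TGFB1 spheroids lie above all other libraries for the 9 increases, and most of the 10 decreases are already low in untreated spheroids. Separation of TGFB1 spheroids from untreated monolayers was a condition of selection.

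The combined change is the sum of an average culture effect (spheroid against monolayer, with and without TGFB1) and an average TGFB1 effect (treated against untreated, in both culture forms). Culture was the larger component, but it also holds any difference of library origin, which cannot be told apart from it. The average culture effect was called for 9025 genes, 4569 higher (33.8%) and 4456 lower (33%), and the average TGFB1 effect for 5166, 2801 higher (20.7%) and 2365 lower (17.5%). The median size over all tested genes was 0.40 on the log2 scale for culture and 0.22 for TGFB1. Among the 7404 genes with a called combined change, the culture effect was the larger in 5653 (76.4%). Scaling to equal sums moved the share of TGFB1 calls that were higher from 54.2 to 41.3%.

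Both effects were called for 3756 genes, and these divided almost evenly. In 1873 genes (13.9% of those tested) the effects had the same sign and added up, 1086 with both higher and 787 with both lower. In 1883 genes (13.9%) they had opposite signs and cancelled in part or in full. Of the cancelling genes, 901 were higher in spheroids and lower with TGFB1, and 982 were the reverse. For 1130 of the 1883 the combined change was estimated below 0.5 in size and not called. These genes are termed cancelled in full below, a label for that rule that does not show a change of 0. For some of these the confidence interval is wide, as given below. A further 5269 genes had a culture effect only, 1410 a TGFB1 effect only and 3074 neither. In 185 of the last class the combined change was nevertheless called.

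**Figure D2:**
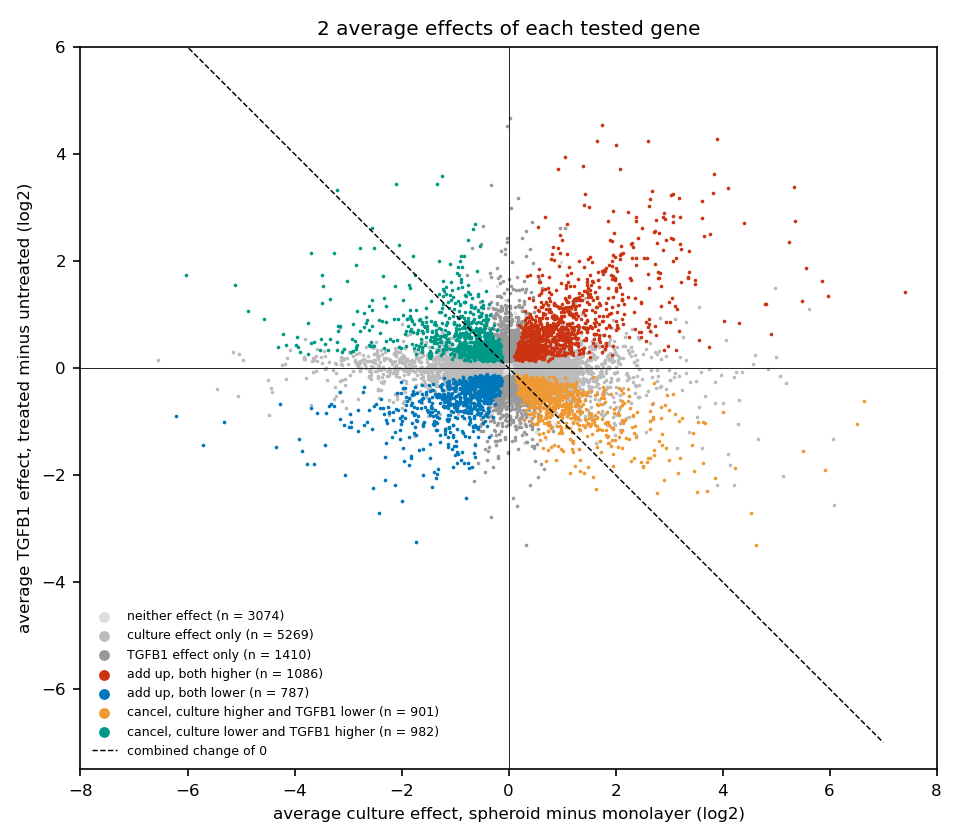
Average culture effect (x axis) against average TGFB1 effect (y axis), both log2, for the 13509 tested genes, coloured by class; the dashed line marks a combined change of 0. The 1086 and 787 genes that add up lie in the upper right and lower left, and the 901 and 982 that cancel lie in the other quadrants along the dashed line.

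Where both effects were higher, the median gene changed by 0.77 with culture, 0.62 with TGFB1 and 1.44 in combination. The rule-selected genes of this class included Col5a3, Serpinb2, Vsig8, S100a8 and Prss42. S100a8, a calcium-binding alarmin subunit, was at 0.612, 0.696 and 0.182 in untreated monolayers and at 19.6, 850.3 and 479.8 in TGFB1 spheroids (7.11 ± 1.05 (SE; adjusted p = 0.00017)), with library 1 again far below libraries 2 and 3 (8.76 without it). Prss42, a serine protease, went from 0.131, 0.075 and 0.157 to 167, 90.5 and 51 (6.37 ± 0.32 (SE; adjusted p = 9.5e-08)). Col5a3 and Prss42 were below 1 outside the TGFB1 spheroids and passed the filter through that group alone. In the 5 named genes neither change alone was of that size. The class holds such genes as well as genes raised by each condition on its own, and the departures from additivity given further on describe this.

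The rule-selected genes with both effects lower included interferon-induced genes. Ifi27l2a, an interferon-inducible gene, was at 68.8, 72.7 and 77 in untreated monolayers, at 6.71, 14.1 and 13 in TGFB1 monolayers, at 13.1, 13.5 and 13.7 in untreated spheroids and at 1.4, 0 and 2.87 in TGFB1 spheroids. Its 2 average effects were -2.42 and -2.71, and its combined change was -5.13 ± 0.40 (SE; adjusted p = 1.7e-06). Tgtp1, an interferon-induced GTPase, fell by 4.77 with an average culture effect of -2.53 and TGFB1 effect of -2.24. Mgarp, a mitochondrial protein of steroid-producing cells, fell from 1589.5, 1847 and 1695 to 42.4, 53.5 and 216. The other 3 were Nkain4 (-5.07), Cyp2f2 (-4.49) and Plekha6 (-4.31). The groups did not overlap in any of these 6 genes, nor in 64% of all tested genes.

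Among TGF-beta pathway and SMAD target genes, 17 of the 30 tested rose in combination and 6 fell, with a median of 0.97 (0.59 with a pseudocount of 5). Over all tested genes 27.7% rose and 27.1% fell with a median of 0.02, against which this and the following gene lists are read. The ligand gene Tgfb1 itself rose from 34.6, 36.5 and 38.7 to 776, 991 and 624 scaled TPM, a change of 4.38 ± 0.13 (SE; adjusted p = 5.5e-09). TGFB1 monolayers were at 40.2, 38.8 and 39.1, a TGFB1 change in monolayers of 0.10 (adjusted p = 0.665). The type I receptor gene Tgfbr1 rose by 1.84 ± 0.18, with a culture effect of 2.23. The cytokine gene Il11 was below 1 on average in the other 3 groups and at 104, 69.1 and 38.3 in TGFB1 spheroids (5.64 ± 0.31 (SE; adjusted p = 1.6e-07)). The Notch ligand gene Jag1 rose by 4.22, the corepressor genes Skil and Ski by 1.19 and 1.27, and the CDK inhibitor gene Cdkn1a by 1.64. Smad7, the inhibitory SMAD, had a TGFB1 effect of 0.47 but a combined change of 0.22 (adjusted p = 0.21). Pmepa1, a feedback inhibitor, was lower in spheroids (-0.66), higher with TGFB1 (2.60) and rose in combination by 1.94. The BMP-responsive genes Id3 and Smad6 fell by 3.28 and 2.65.

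Matrix genes did not move as a block. Of 15 tested collagen genes, 7 rose and 6 fell, with a median of 0.12, which was 0.00 with equal library sums. The culture and TGFB1 medians of the list (0.02 and -0.00) changed sign with scaling. Col18a1 rose by 4.24 and Col5a1 by 2.88. The 6 that fell were Col6a1 (-3.12), Col4a1 (-1.67), Col4a2 (-1.65), Col5a2 (-1.46), Col6a2 (-1.31) and Col3a1 (-0.90). Col15a1 was at a mean of 0.533 in untreated monolayers, 321 in untreated spheroids and 81.8 in TGFB1 spheroids. Among 22 tested matrix glycoproteins and collagen-processing genes, 10 rose and 7 fell. Fn1, fibronectin, was at 159, 148 and 185 in untreated monolayers, 281, 280.0 and 271 in TGFB1 monolayers, 492, 435 and 319 in untreated spheroids and 8515, 7649.7 and 4505 in TGFB1 spheroids, a combined change of 5.34 ± 0.22 (SE; adjusted p = 2.8e-08). The TGFB1 spheroids stood far above every other library. Tnc, tenascin C, rose by 6.02 ± 0.33, most of it with culture (4.82). Lox, the collagen cross-linking oxidase, fell with culture (-1.34), rose with TGFB1 (3.43) and ended 2.10 higher. Thbs1, Sparc and Serpinh1 followed the same opposed pattern but ended lower, at -1.74, -1.18 and -0.93.

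Proteases and their inhibitors had the highest list median, 2.12 (3.37 with a pseudocount of 0.1). Of 19 tested, 13 rose and 3 fell in combination. By the average effects 12 rose with culture and 10 with TGFB1, and in 7 both were higher. The combined change was called above the sum of the 2 single changes for 7 of the 19 and below it for 1. Over all tested genes these shares were 8.72% and 7.11%, so a higher average effect need not mean a rise in each condition alone. Timp1, an inhibitor of metalloproteinases, was at 179, 159 and 181, 287, 166 and 156 and 209, 194 and 411 scaled TPM in untreated monolayers, TGFB1 monolayers and untreated spheroids and at 10979, 12693 and 10181 in TGFB1 spheroids. Its combined change was 6.02 ± 0.28 (SE; adjusted p = 6e-08). The gelatinase gene Mmp2 rose by 3.35 with a TGFB1 effect of 3.17, and the stromelysin gene Mmp10 by 3.40 with a culture effect of 2.35. The 3 genes that fell were Timp3 (-2.01), Timp2 (-0.87) and Adamts1 (-2.08). The membrane protease gene Mmp14 cancelled, with a culture effect of -1.25, a TGFB1 effect of 1.13 and a combined change of -0.12.

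**Figure D3:**
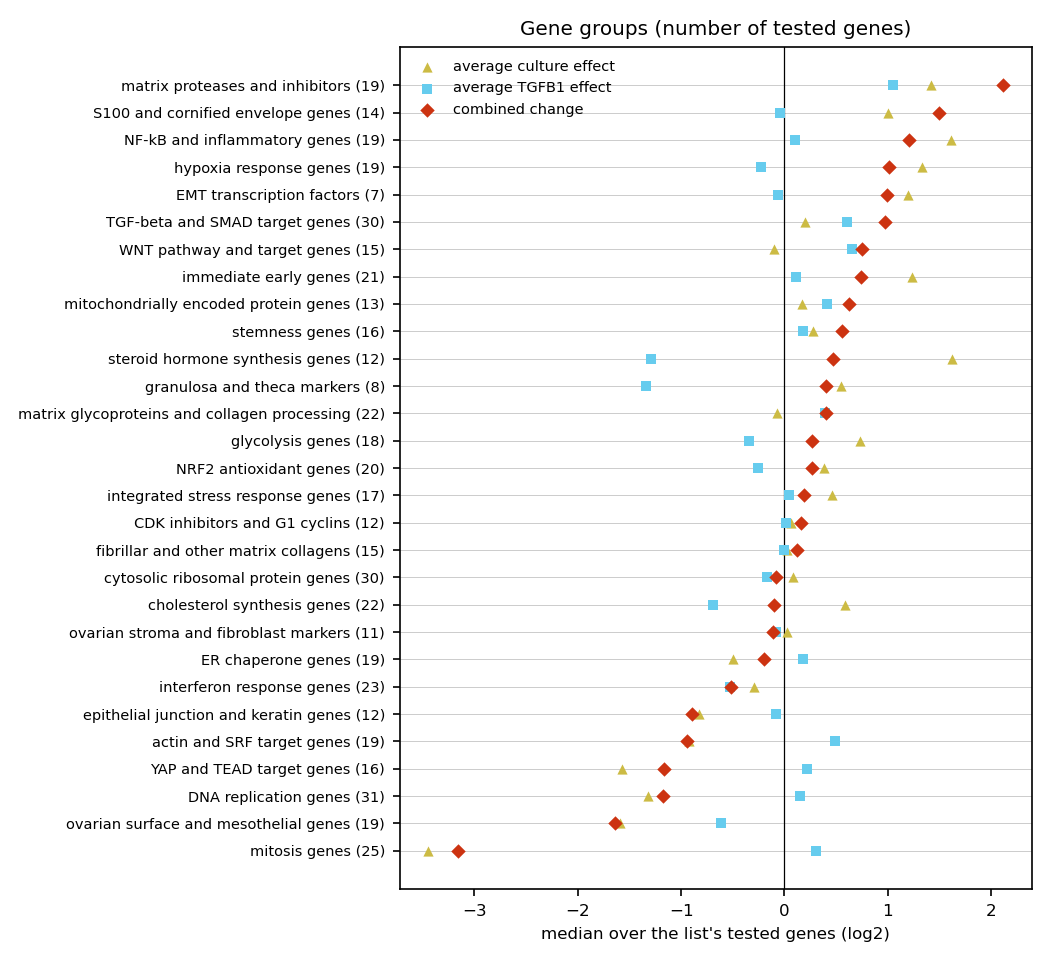
Median log2 change over the tested genes of each group (number in brackets) for the average culture effect, the average TGFB1 effect and their sum, the combined change, ordered by the last. Proteases stand at the top with a median of 2.12 and mitosis genes at the bottom with -3.16.

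All 25 mitosis genes fell, with a median of -3.16, with a median culture effect of -3.45. The summed level of the 25 was 1182 to 1550 in untreated monolayers, 1334 to 1458 in TGFB1 monolayers, 110 to 115 in untreated spheroids and 146 to 195 in TGFB1 spheroids. Mki67, the proliferation antigen Ki-67, went from 32.8, 25.1 and 33.7 to 1.71, 1.75 and 1.95 (-3.48 ± 0.12 (SE; adjusted p = 1.1e-08)). Ccnb1, cyclin B1, went from 71.1, 50.9 and 69.3 to 2.68, 3.71 and 5.31 (-3.74 ± 0.19). The average TGFB1 effect was positive and called for 12 of the 25, for example Cenpa (0.68) and Bub1 (0.48), so that TGFB1 spheroids lay between untreated spheroids and monolayers. Of 31 DNA replication genes, 28 fell (median -1.18). Rrm1, a ribonucleotide reductase subunit, fell by 2.43 and Mcm5, of the replicative helicase, by 2.16. Tyms, Pcna and Gins3 were the 3 without a called combined change, at -0.65, -0.24 and 0.09. The number of replication genes with a called positive TGFB1 effect was 8, and 3 without untreated monolayer 2.

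Genes of mitosis commonly carry a cell-cycle homology region (CHR), a short promoter element through which they are repressed in resting cells, and the windows below are shown for that reason. In the RefSeq promoters of GRCm38.p6, 22 of the 25 mitosis genes had a window, and 10 of their 23 windows (43.5%) held TTTGAA or TTCGAA on either strand within 250 bases before the start, against 17.2% of all 32851 windows. A match is a run of letters and was not tested as a binding site. The mitosis list and the YAP and TEAD and hypoxia lists further on hold genes known for the kind of element searched. Their shares of matches were not set against the changes in expression. The 100 bases before the start of 6 of these genes are printed 5′ to 3′ on the gene's strand, with the match in capitals (TTCAAA is TTTGAA read on the other strand).
Cdc20 (chr4:118437344-118437443, minus strand): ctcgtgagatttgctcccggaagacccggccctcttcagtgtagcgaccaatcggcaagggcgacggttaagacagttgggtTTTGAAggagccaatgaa
Cdk1 (chr10:69352913-69353012, minus strand): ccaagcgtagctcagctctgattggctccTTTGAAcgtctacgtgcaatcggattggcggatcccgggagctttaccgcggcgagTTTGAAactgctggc
Kif11 (chr19:37376282-37376381, plus strand): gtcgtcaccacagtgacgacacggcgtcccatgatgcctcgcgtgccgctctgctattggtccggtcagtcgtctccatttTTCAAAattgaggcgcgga
Prc1 (chr7:80294376-80294475, plus strand): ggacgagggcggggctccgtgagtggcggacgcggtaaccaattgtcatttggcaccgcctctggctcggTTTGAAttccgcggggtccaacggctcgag
Top2a (chr11:99024190-99024289, minus strand): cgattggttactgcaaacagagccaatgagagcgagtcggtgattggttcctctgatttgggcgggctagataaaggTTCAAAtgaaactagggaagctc
Ube2c (chr2:164769829-164769928, plus strand): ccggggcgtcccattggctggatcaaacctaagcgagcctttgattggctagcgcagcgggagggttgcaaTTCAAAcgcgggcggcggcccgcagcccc
In the data the combined changes of these 6 were -3.32 for Cdc20, -1.92 for Cdk1, -2.92 for Kif11, -2.69 for Prc1, -2.94 for Top2a and -3.55 for Ube2c. Cdk1, the mitotic kinase, has 2 matches in its window and the smallest fall of the list.

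Genes read out by YAP with TEAD factors, which respond to cell spreading and tension, were mostly lower: 11 of 16 tested fell, with a median of -1.16. Ankrd1 rose by 1.56, a call lost at least in the fits without TGFB1 spheroid 3 and without untreated monolayer 1, 2 or 3. Amotl2, an angiomotin that binds YAP, was at 305, 301 and 299 in untreated monolayers, 278, 309 and 304 in TGFB1 monolayers, 14.9, 13.8 and 13.8 in untreated spheroids and 15.2, 15.6 and 16.2 in TGFB1 spheroids (-4.18 ± 0.06 (SE; adjusted p = 2.6e-11)). Its average TGFB1 effect was 0.06 (adjusted p = 0.366). Cyr61 (Ccn1), a matricellular protein, fell by 3.33, Ajuba by 2.39 and the kinase gene Lats2 by 2.20. The TEAD core GGAATG or its reverse complement was in 6 of 13 windows of 12 list genes (46.2%), against 12.6% of all windows. Amotl2 is shown as the gene of the list with the largest fall, with CATTCC, the reverse complement, in capitals.
Amotl2 (chr9:102717704-102717803, plus strand): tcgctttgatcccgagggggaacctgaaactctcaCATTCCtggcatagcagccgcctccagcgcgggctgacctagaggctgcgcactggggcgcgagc
Actin and SRF target genes fell with culture and rose with TGFB1: 17 of 19 had a lower culture effect and 13 a higher TGFB1 effect. In combination 12 fell and 1, Tpm4, rose. Tagln, transgelin, was at 1089.8, 1169 and 1452 in untreated monolayers, 3027, 2165 and 2057 in TGFB1 monolayers, 8.87, 6.15 and 17.1 in untreated spheroids and 55.9, 84.6 and 49.6 in TGFB1 spheroids. Its culture effect of -6.03 exceeded its TGFB1 effect of 1.74, and it ended -4.29 against untreated monolayers. Acta2, smooth muscle actin, followed the same order (-5.11, 1.56 and -3.55). In 4 of the list the effects cancelled in full by the rule above: Flna (-0.21), Actn1 (-0.18), Tpm2 (-0.12) and Fhl2 (0.11).

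Genes of the ovarian surface and mesothelium fell in 14 of 19 tested, with a median of -1.64 (-2.85 with a pseudocount of 0.1), and in 8 of them both effects were lower. Msln, mesothelin, went from 429, 509 and 551 to 17.8, 20.8 and 27.2 (-4.45 ± 0.23 (SE; adjusted p = 1.2e-07)), and Wt1, the mesothelial transcription factor, from 189.6, 172 and 169 to 59.5, 49.9 and 59.2 (-1.64 ± 0.17 (SE; adjusted p = 1.1e-05)). The 2 that rose were Igfbp5 (3.94) and Slpi (2.51), both secreted proteins. Of 12 tested epithelial junction and keratin genes 8 fell, among them Cgn, the tight-junction protein cingulin (-3.61), Ocln, occludin (-2.25), and Cdh3, P-cadherin (-2.41). The defining epithelial genes Epcam, listed at 0 throughout, and Cdh1, at no more than 0.102, were at or near 0 in all groups. Of the 7 tested epithelial-mesenchymal transition factors 4 rose and 1 fell. Snai1 went from 1.36, 1.21 and 0.92 to 52.3, 42 and 33.5 (4.32 ± 0.31 (SE; adjusted p = 1.1e-06)) with added effects of 1.94 and 2.38, whereas Zeb1, Zeb2 and Twist1 rose with culture (1.45, 1.20 and 1.25). Snai3 fell by 1.70 and Snai2 was at 0.26 (adjusted p = 0.335). Genes often used as stemness markers were split, with 8 of 16 higher and 4 lower. Cd44, the hyaluronan receptor, rose by 5.51 ± 0.47 and Alcam by 5.18 ± 0.19, each with both effects higher, while Aldh1a1, a retinaldehyde dehydrogenase, fell by 3.14 and Thy1 by 4.15, along with Itga6 and Ly6a.

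Hypoxia response genes rose with culture, and many fell with TGFB1. A positive culture effect was called for 18 of 19, a negative TGFB1 effect for 9, and the combined change was higher for 12, with a median of 1.01. Slc2a1, the glucose transporter GLUT1, went from 20.1, 16.6 and 20.1 to 181, 214 and 168 (3.24 ± 0.13 (SE; adjusted p = 2.8e-08)). Vegfa, the angiogenic growth factor, rose by 2.43, Ddit4 by 2.65 and the prolyl hydroxylase gene Egln3 by 3.04. In 5 of the list the effects cancelled in full, including Pdk1 (1.12, -0.77 and 0.35 for culture, TGFB1 and combination) and Ndrg1 (1.33, -1.16 and 0.17). The hypoxia core ACGTG was on either strand in 13 of 24 windows of 15 of these genes (54.2%), against 16.6% of all windows. Of the 18 glycolysis genes, 15 were higher with culture, 9 lower with TGFB1 and 8 higher in combination, with a median of 0.27 (0.15 with equal library sums). Hk1, hexokinase 1, rose by 3.87 and Pfkp, a phosphofructokinase, by 2.42. In 7 the effects cancelled in full, such as Ldha, lactate dehydrogenase (0.52, -0.60 and -0.08), and Gapdh (0.30, -0.48 and -0.18).

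In cholesterol synthesis the 2 effects were opposed. Culture raised 12 of 22 genes and TGFB1 lowered 18, while in combination Tm7sf2 and Dhcr7 rose and 2 genes fell, among them Hmgcs1. The medians were 0.58, -0.70 and -0.10, the last of which turned to 0.06 with library quality weights and was -0.23 with equal library sums. Idi1, an isoprenoid isomerase, was at 75.1, 45.7 and 42.3 in untreated monolayers, 40.7, 29.8 and 31.2 in TGFB1 monolayers, 178, 169 and 104 in untreated spheroids and 43.9, 29.9 and 80.8 in TGFB1 spheroids. Untreated spheroids were above the other 3 groups, and the TGFB1 spheroid values overlapped those of untreated monolayers. The effects also cancelled in full for Msmo1, Sqle and Srebf2, with combined changes of -0.07, 0.14 and 0.06. The count of cancelling genes rested on single libraries: it was 11, but 4 without untreated monolayer 2 and 15 without untreated spheroid 3, and the count lowered by TGFB1 was 10 without untreated spheroid 1. In steroid hormone synthesis, culture raised 9 of 12 genes and TGFB1 lowered 8. Star, which carries cholesterol into mitochondria, was at mean levels of 293, 139.6, 1632 and 569 in the same order of groups. Its combined change of 0.92 (adjusted p = 0.033) lost its call in 5 of the 12 fits that left out 1 library. Its culture effect of 2.25 and TGFB1 effect of -1.33 kept theirs in all 12.

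Inflammatory and NF-kB genes rose in 14 of 19 tested and fell in 2, with a median of 1.21. Il6, the cytokine interleukin 6, was at 0, 0 and 0.142 in untreated monolayers and 25.6, 47 and 37 in TGFB1 spheroids (5.12 ± 0.62 (SE; adjusted p = 4.1e-05)), and Ptgs2, the inducible cyclooxygenase, went from 106, 106 and 118 to 1027, 1789 and 1369.6 (3.62 ± 0.31). In both genes the 2 effects added up. The chemokine gene Ccl7 instead rose with culture (3.54) and fell with TGFB1, ending at 2.53. The 2 that fell were the adhesion molecule gene Vcam1 (-3.12) and Csf1 (-1.47). Interferon response genes went the other way, with 12 of 23 lower and a median of -0.52, which was -0.81 after quantile normalization and -0.95 with a pseudocount of 0.1. Isg20 was the 1 called higher (0.79), which was lost in 5 of the 12 fits that left out 1 library. Irf1 fell by 2.88 and Gbp2 by 3.50, each with both effects lower, whereas Isg15 was at 0.23 (adjusted p = 0.438). Of 14 tested S100 and cornified envelope genes 9 rose, led by S100a8 (above) and S100a16 (4.84), and S100a6 fell by 1.08. Of 21 immediate early genes 12 rose and 3 fell, for example Egr2 (3.38) and Junb (2.47) against Fos (-1.38), Nr4a1 (-1.54) and Fosl2 (-0.76).

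Remaining stress and signalling groups were mixed. In the integrated stress response 6 of 17 rose and 2 fell; Slc7a11, the cystine transporter, rose by 3.69 and Phgdh, of serine synthesis, fell by 1.78 and Sesn2 by 0.54. Of 20 NRF2 antioxidant genes 6 rose and 6 fell, with Nqo1 at 2.47 and Gsta4 at -2.32. The number higher was 10 without TGFB1 spheroid 1. ER chaperones were lower in 7 of 19 and higher in 4, with a median of -0.20 (-0.33 with equal library sums and -0.10 after quantile normalization), and 8 showed a TGFB1 increase that cancelled against a culture decrease, such as Pdia3 (0.37 and -0.66). Of 15 WNT pathway and target genes 7 rose and 4 fell. The ligand genes Wnt7b and Wnt11 rose by 3.08 and 3.50, mostly with TGFB1 (3.41 and 2.83), while the secreted antagonist gene Sfrp1 and the feedback gene Axin2 fell by 4.87 and 2.66, and Dkk2 and Fzd2 by 0.99 and 0.45. Among 12 CDK inhibitors and G1 cyclins Cdkn1a, Cdkn2d and Rb1 rose and Cdk4, Cdkn1b, Ccne2 and Cdkn2c fell. Of 30 cytosolic ribosomal protein genes 9 fell, with a median of -0.09 that was 0.02 after quantile normalization and -0.22 with equal library sums. Of 13 mitochondrially encoded genes 10 rose with a median of 0.63, which was 0.07 after quantile normalization, and 4 did without TGFB1 spheroid 2. Their summed level was 64802 to 72057 in untreated monolayers and 73869 to 162040 in TGFB1 spheroids.

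Genes in which culture and TGFB1 cancelled were of both kinds. Col1a1, the main fibrillar collagen chain, was at 6.01, 6.74 and 7.02 scaled TPM in untreated monolayers, 214, 136 and 123 in TGFB1 monolayers, 0.771, 0.483 and 0.764 in untreated spheroids and 7.68, 7.84 and 6.28 in TGFB1 spheroids. TGFB1 raised it in both culture forms and spheroid culture lowered it with and without TGFB1. The 2 average effects were -3.20 and 3.32, and the combined change was 0.12 with a 95% confidence interval of -0.29 to 0.53. Pdlim1, an actin-associated PDZ-LIM protein, went through 105, 110.0 and 107, then 1063, 535 and 476, then 18.9, 14 and 18.5, and ended at 96.9, 154 and 95.3 in the same order of groups. Its combined change was 0.06 (-0.54 to 0.67), with libraries of the outer groups overlapping. Ctgf (Ccn2), a target of both SMAD and YAP, had effects of -2.04 and 2.29 and a combined change of 0.25 whose interval was wide (-1.46 to 1.95). Igf1 and Mcam shared the pattern but the culture effect prevailed, with combined changes of -1.12 and -1.56. Scube3 ended at -0.28 (-0.75 to 0.19), and Sytl2 at -0.53 (adjusted p = 0.033), a call that was lost in 9 of the other settings.

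In the opposite pattern, the average culture effect was higher and the average TGFB1 effect lower. Akr1c18, an enzyme that inactivates progesterone, was at 49.3, 56.3 and 77.6 in untreated monolayers, 2.79, 6.26 and 5.26 in TGFB1 monolayers, 1432, 1379.7 and 1274 in untreated spheroids and 86.3, 53.5 and 714 in TGFB1 spheroids. The average effects were 4.62 and -3.32, and the combined change was 1.30 (-0.29 to 2.90; adjusted p = 0.15). TGFB1 spheroid 3 was the highest of its group. Gstm1, a glutathione transferase, was at 18.4, 18.8 and 21 in untreated monolayers, 373, 334 and 336 in untreated spheroids and 10.5, 17.1 and 99.4 in TGFB1 spheroids, a combined change of 0.44 (-0.88 to 1.75). Library 3 was the highest TGFB1 spheroid here and also for Kctd14, Clec2h, Serpinb1a, Ptgds and Vstm2a, whose combined changes were 1.83, 1.42, 1.20, 0.82 and 0.11. In monolayers their TGFB1 changes lay between -0.74 (Ptgds) and 0.02 (Clec2h), and none was called. In spheroids those changes lay between -5.36 (Kctd14) and -3.00 (Vstm2a), so the lower average TGFB1 effect of these genes rests mainly on spheroids. Without library 3 the combined changes were 0.18 for Akr1c18, -0.50 for Gstm1, 0.09 for Kctd14, 0.01 for Clec2h, 0.34 for Serpinb1a, -0.23 for Ptgds and -0.41 for Vstm2a. Without library 2 they were 2.03 for Akr1c18 (adjusted p = 0.029), 2.04 for Serpinb1a (adjusted p = 0.0035) and 1.72 for Ptgds (adjusted p = 0.056), and without library 1 that of Clec2h was 2.17 (adjusted p = 0.069). None of these combined changes was called with all libraries, and their intervals, such as -0.53 to 4.18 for Kctd14, do not show that the groups were alike.

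**Figure D4:**
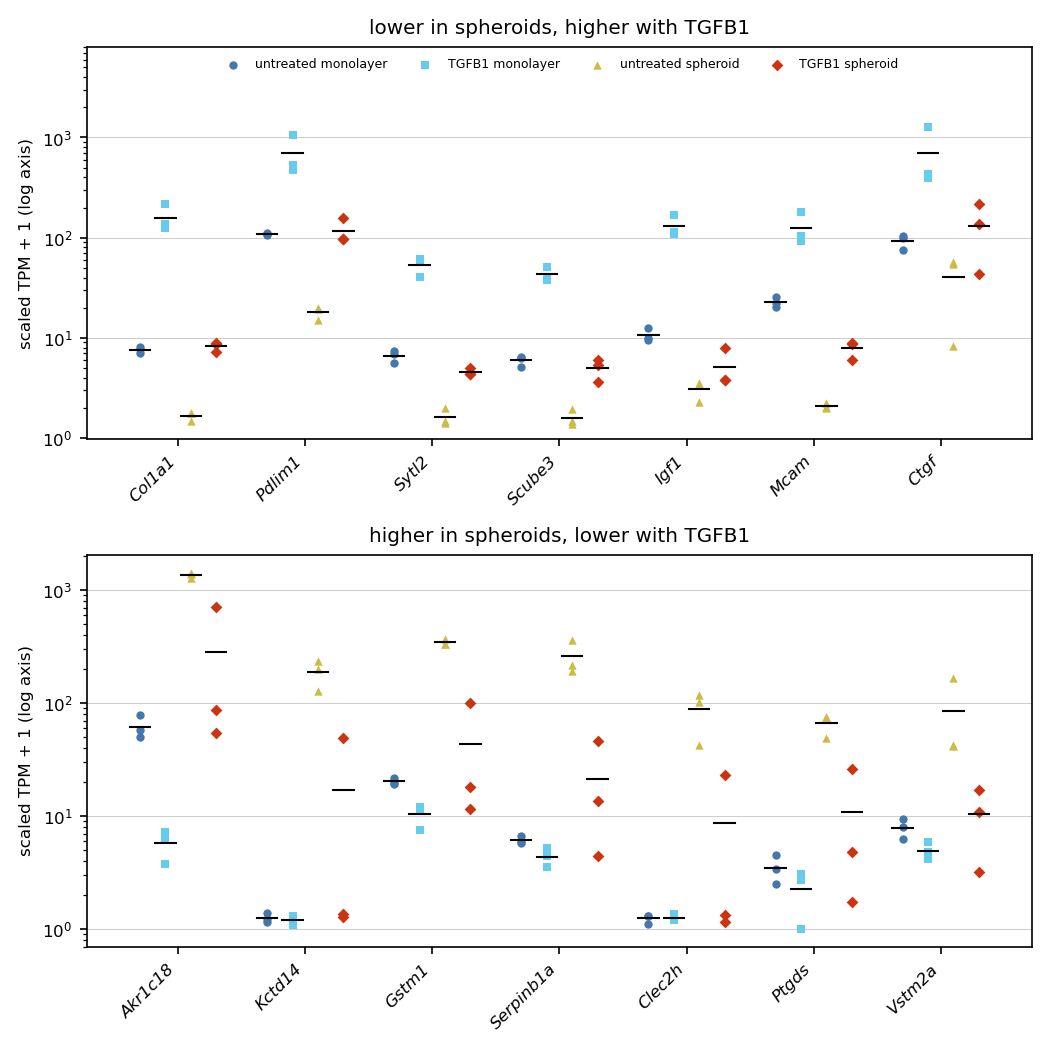
Scaled TPM plus 1 on a log axis for 7 genes with a lower average culture effect and a higher average TGFB1 effect (top) and 7 genes with the reverse pattern (bottom); points are libraries and bars are group means. In the top panel the means of untreated monolayers and TGFB1 spheroids lie between those of the other groups, and in the bottom panel 1 TGFB1 spheroid library lies above the other 2 for most genes.

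The length of TGFB1 treatment in monolayers is not given, so a departure from additivity cannot be told apart from an unlike treatment schedule. The combined change was next set against the sum of the 2 single changes, culture without TGFB1 and TGFB1 in monolayers. It departed from that sum in 2138 genes, above it in 1178 (8.72%) and below it in 960 (7.11%), and by at least 2-fold in 608 and 486. Among the genes that added up with both effects higher, 378 lay above the sum, 44 below and 664 showed no called departure. Among the genes that were higher in spheroids and lower with TGFB1, 203 lay below the sum and 26 above. With equal library sums the share of departures above the sum was 27.8% in place of 55.1%, and the median gene moved to -0.21. The counts above and below the sum are therefore those of the deposited scaling, and departures below that size have no firm direction. The number of departures was 1402 without untreated monolayer 3, 2741 without untreated spheroid 3 and 4385 with library quality weights.

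Among the named genes the largest positive departures belonged to genes low in 3 of the 4 groups. The filter asked for 1 in at least 3 of the 12 libraries, and naming for a group mean of at least 10. A gene can thus enter through the TGFB1 spheroids alone, as Aqp1 and Col5a3 did. For such genes a large positive departure goes with how they entered and is no separate result. Vsig8 was at 1.29, 0.682 and 0.777, 0.331, 0.809 and 0.545 and 1.45, 1.3 and 2.04 in untreated monolayers, TGFB1 monolayers and untreated spheroids and at 184, 567 and 366 in TGFB1 spheroids. The single changes sum to 0.15, the combined change was 7.48 and the departure was 7.33 ± 0.46 (SE; adjusted p = 5.3e-06). Chil1, a secreted chitinase-like protein, was at 3.02, 2.2 and 2.1, 0.97, 1.63 and 1.17 and 6.74, 5.85 and 6.24 and at 572, 403 and 459 in TGFB1 spheroids, a departure of 6.64 ± 0.22 (SE; adjusted p = 1.1e-07). Its 3 TGFB1 spheroid libraries were close together, unlike those of Serpinb2. Aqp1, the water channel aquaporin 1, was below 1 in all other libraries and at 322, 72.6 and 42 in TGFB1 spheroids (departure 6.48 ± 0.77). Col5a3 departed by 7.06. Serpinb2 departed by 6.49 ± 1.67 (SE; adjusted p = 0.025), a call lost in 8 of 23 other settings, where its adjusted p reached 0.0577. Fn1 (3.26), Timp1 (5.28), Il11 (5.07) and Tgfb1 (2.86) from the groups above also lay above their sums. The AP-1 site TGANTCA, bound by Fos and Jun proteins, was searched on both strands before the starts of the 10 largest increases because AP-1 acts on many protease-system genes. It was in 2 of 14 windows of 9 genes (14.3%), against 6.75% of all windows. One of them is Serpinb2, whose 100 bases before the start are shown with the match in capitals.
Serpinb2 (chr1:107511323-107511422, plus strand): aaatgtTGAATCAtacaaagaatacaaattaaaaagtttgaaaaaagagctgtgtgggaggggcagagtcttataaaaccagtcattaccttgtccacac

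The largest negative departures were of a different kind. Gdf6, a BMP-family ligand, was at 13.2, 9.71 and 15.2 in untreated monolayers, 132, 82.3 and 72.5 in TGFB1 monolayers, 7.74, 8.35 and 8.97 in untreated spheroids and 2.79, 1.39 and 4.26 in TGFB1 spheroids. TGFB1 thus raised it in monolayers (2.79) and lowered it in spheroids (-1.37), for a departure of -4.16 ± 0.40 (SE; adjusted p = 0.00012). Kirrel3, a cell-adhesion protein of the immunoglobulin superfamily, was higher in each single condition (7.71, 5.11 and 4.98 in TGFB1 monolayers and 6.67, 5.42 and 29.8 in untreated spheroids, from 0.517, 0.329 and 0.516) and at 1.83, 1.61 and 2.33 in TGFB1 spheroids, a departure of -4.22 ± 0.65 (SE; adjusted p = 0.0021). Cst12, a cystatin, rose with culture alone to 13.5, 15 and 20.2 and was at 0.136, 0 and 1.51 in TGFB1 spheroids (departure -4.15 ± 0.50). Kctd14, Clec2h and Akr1cl were induced in untreated spheroids and low in TGFB1 spheroids 1 and 2 but not in 3. Akr1cl, an aldo-keto reductase, was at 571, 597 and 475 in untreated spheroids and 10.3, 10.8 and 239.9 in TGFB1 spheroids, and its combined change of 4.01 was 2.54 without TGFB1 spheroid 3. The departures of these 3 genes were -5.32, -4.63 and -4.39 (-7.05, -6.04 and -5.85 without TGFB1 spheroid 3), and each call was lost in 12 to 14 of 23 other settings.

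**Figure D5:**
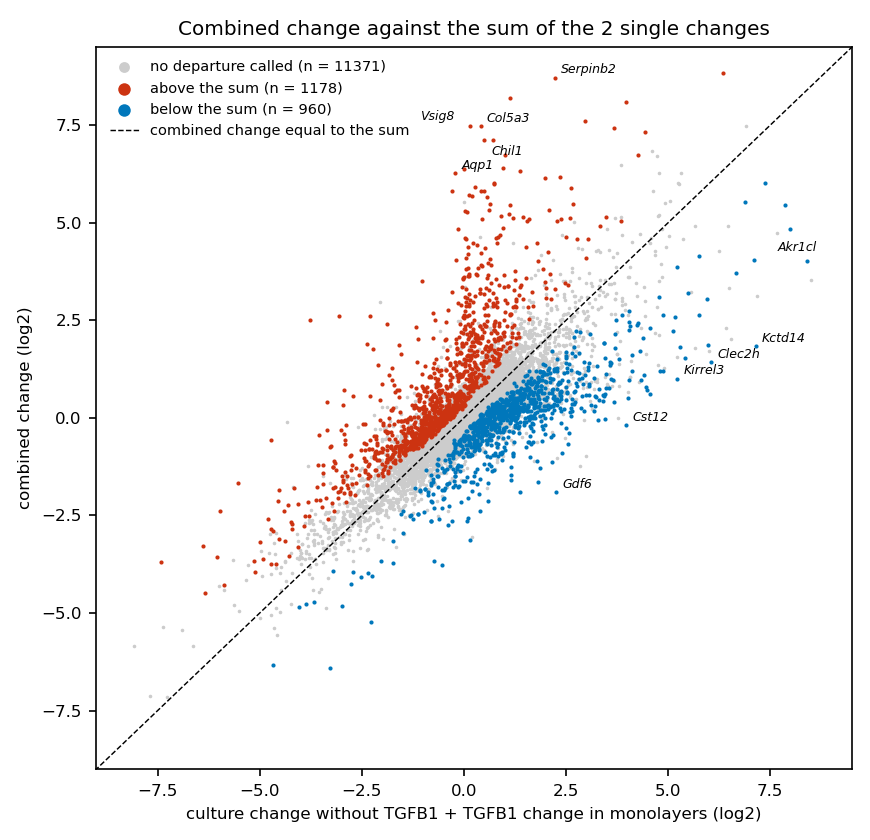
Combined change (y axis, log2) against the sum of the culture change without TGFB1 and the TGFB1 change in monolayers (x axis, log2) for the 13509 tested genes; colours mark the 1178 genes called above and the 960 called below the dashed line of equality. Vsig8, Col5a3, Chil1, Serpinb2 and Aqp1 lie far above the line at sums between -0.21 (Aqp1) and 2.23 (Serpinb2).

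Markers of other ovarian cell types were measured in the same libraries. Leukocyte genes were nearly absent: 2 of 13 were tested, Ptprc reached 0.124 at most and Tyrobp 0.147. The summed level of that list was 27.4 to 37.3 in untreated monolayers and 38.3 to 93.1 in TGFB1 spheroids, and Cd14 rose by 1.65. Of 11 endothelial genes 3 were tested, Cldn5 was listed at 0 in all libraries and Kdr reached 0.0436 at most. Cdh5, VE-cadherin, nevertheless went from 0.016, 0.0963 and 0.0144 to 51.3, 32.8 and 23.9 (5.08 ± 0.34 (SE; adjusted p = 5.4e-07)), and the list summed to 3.76 to 4.61 in untreated monolayers and 30.0 to 57.3 in TGFB1 spheroids. Among 8 tested granulosa and theca genes Star and Foxl2 rose and Amhr2 (-2.98), Inhbb (-2.64) and Inha fell, and Fshr and Lhcgr were listed at 0. Stroma and fibroblast genes were split, with Pdgfrb of 11 tested higher, Thy1, Dcn, Col3a1 and Nr2f2 lower and a median of -0.11 that became 0.09 after quantile normalization and -0.24 with equal library sums. Of 5 tested oviductal markers 3 rose and Krt7 (-7.12) fell, with a median of 0.51 that was 0.18 after quantile normalization. The oviductal list summed to 292 to 368 in untreated monolayers and 9.96 to 16.5 in TGFB1 spheroids, and in monolayers nearly all of that sum was Krt7. Of 2 tested oocyte genes Ddx4 fell by 4.06 and Gdf9 rose by 0.87. In bulk libraries fewer cells of a type and less RNA per cell cannot be told apart, and the part of these markers in the other results was not tested.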

How the data were processed

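Poly(A) RNA from m1102 cells was sequenced with a directional kit, per the labels' protocols. The authors quantified transcripts with kallisto 0.44.0 and sleuth 0.30.0 on GRCm38, per the submitters' processing notes. The deposited signal is TPM per gene, rescaled by the authors differently in each library (from the values, whose library sums differ). Kallisto shares reads between near-identical copies, so paralogs are uncertain, and single reads cannot be recovered. The authors' deposited table holds model coefficients on the natural log scale; the sum of its culture, TGFB1 and interaction terms was used for its sign. Of the table's gene IDs, 98.2% were in GENCODE M21, which gave positions on GRCm38.

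Genes at 1 or more in at least 3 of 12 libraries were fitted as log2(value + 1) with limma 3.58.1 in R 4.3.3 (4 group means, variance trend, no covariate), and p-values were adjusted by Benjamini-Hochberg over 13509 genes at 0.05. Contrasts were the combined change, the average culture and TGFB1 effects, whose sum it is, and the interaction, called the departure from additivity. Named genes had a group mean of at least 10, a symbol that is not a gene model, and were the 10 largest changes each way with libraries that do not overlap, the 6 with the largest smaller effect per class and among the fully cancelled, the 6 largest departures each way, and any list member. The members and lists were chosen with earlier results of these data known. Promoter letters came from RefSeq on GRCm38.p6. Tables and plots used Python 3.11.15, pandas 2.3.3, numpy 2.4.6 and matplotlib 3.10.9, and the fit was checked on simulated data. Alternatives covered scaling, pseudocount, filter, weights, replicate block and each library left out. The Snail and BRCA1 experiments of the series were not used here. A few genes that the rule selects are not reported here.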

Additional observations from a re-analysis of the deposited data

Results flagged for a closer look

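The TGFB1 effect differed between spheroids and monolayers in 2138 genes by the interaction term of the 4-group model (adjusted p below 0.05). This term is the departure from additivity of the report. The spheroid cells had TGFB1 for 4 days before low attachment, and the length in monolayers is not given. Culture form and treatment schedule therefore cannot be told apart here. With equal library sums 27.8% of the departures were upward in place of 55.1%. The named genes with the largest differences upward were Vsig8 at 7.33, Col5a3 at 7.06, Chil1 at 6.64, Serpinb2 at 6.49 and Aqp1 at 6.48 on the log2 scale. In these genes TGFB1 raised the level in spheroids by between 6.03 (Chil1) and 7.16 (Col5a3), and the change in monolayers lay between -0.61 (Chil1) and 0.14 (Serpinb2). The largest differences downward were Kctd14 at -5.32, Clec2h at -4.63, Akr1cl at -4.39, Kirrel3 at -4.22, Gdf6 at -4.16 and Cst12 at -4.15. Gdf6 and Kirrel3 changed sign between the culture forms, with TGFB1 changes in monolayers of 2.79 and 2.23 and in spheroids of -1.37 and -1.98.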

How the results depend on the processing

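The counts of combined changes, culture effects, TGFB1 effects, genes that add up and genes that cancel stayed within 1.5 times of the reported counts in every alternative, and no named combined change that was called reversed. The uncalled ones of Gstm1, Ptgds, Pdlim1, Ctgf, Vstm2a and Cst12 changed sign in 1 to 4 settings each. Departures from additivity were less firm: 4385 were called with library quality weights in place of 2138. Leaving out 1 library at a time gave 6444 to 7872 combined changes, 8431 to 9197 culture effects, 4254 to 5475 TGFB1 effects, 1402 (without untreated monolayer 3) to 2741 (without untreated spheroid 3) departures, 1523 to 1975 genes that add up and 1440 to 2198 that cancel. The cause was not tested. With replicate number as a block there were 7159 combined changes, 8814 culture effects, 4786 TGFB1 effects, 1827 departures, 1758 genes that add up and 1683 that cancel. Deviations of same-numbered libraries correlated between -0.32 and 0.186, so the numbers were not taken to pair the libraries. With the 6 compared libraries alone 7082 combined changes were called. Of the named genes with a called combined change, Sytl2 lost it in 9 settings (highest adjusted p = 0.111). Departure calls were lost for Serpinb2 in 8 of 23 settings, Kctd14 in 14, Clec2h in 14 and Akr1cl in 12. The average TGFB1 effect of Akr1cl lost its call in 10 of the 12 fits without 1 library, and that of Rasl11a was -1.80, and -1.19 without TGFB1 monolayer 1. The culture effect of Kirrel3 was 0.88, and 0.52 without untreated spheroid 3. Departures of Cyp2f2 and Scube3 missed the threshold in single leave-outs (Scube3 adjusted p = 0.0529). Read depth is unknown, so the counting error of low values cannot be given.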
